A study of Zea mays with 24 samples.

Results

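The genes described here are a run of maize (Zea mays) gene models with consecutive identifiers, from Zm00001d040000 to Zm00001d041999. A member is a nuclear gene model in that range with a mean of at least 10 CPM (the count scaled to a common library total) over the 6 libraries of the genotype experiment; 1 identifier of the range, Zm00001d040189, was left out. Of 1421 identifiers listed in the range, 339 were members (23.9%). Over all 44145 nuclear identifiers, 11384 reached the same level (25.8%). The run was picked out because many of its genes had differed between mutant and wild type in the genotype experiment, so the values of that experiment are given below as a description only. The libraries of the jasmonic acid experiment were not used to choose the run, and mutant and wild type are tested there.

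Endosperm, which feeds the embryo and seedling, was sampled 15 days after pollination. Each library pooled 5 to 10 endosperms and was made by MP3RNA-seq, which reads transcripts near their 3' ends; there were 24 libraries, 3 in each of 8 groups. In the genotype experiment, endosperm of a ZmICE1a mutant was set against wild type. In the JA experiment, mutant and wild type were combined with JA (jasmonic acid) and its absence, and in the IAA experiment, wild type endosperm given IAA (indole-3-acetic acid, an auxin) was set against wild type without it. The kind of mutant allele, the inbred background of the 2 genotypes, the hormone doses and whether replicates came from separate plants are not stated by the labels. The p-values therefore rest on the spread among these libraries, and that spread may be technical only.

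ZmICE1a belongs to the ICE1 family of basic helix-loop-helix transcription factors, which bind short DNA motifs in promoters; the family is best known in Arabidopsis for cold responses and stomatal development. Gene models of this identifier form come from an earlier annotation of the maize B73 genome and were numbered largely in order along each chromosome, so that a run of identifiers is, as a rule, a stretch of chromosome. Members of the run were chosen by position in that order and by level, and they share no named pathway. No nuclear identifier was paired with a name in the files or in the RefSeq table used, so no role is given for any member, and the level of ZmICE1a itself is not reported here. Coordinates are not used here.

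The labels of 6 libraries of the JA experiment contradict each other. The 3 libraries titled as JA-treated wild type have mutant in the genotype field and the deposited name mu_0. Conversely, the 3 libraries titled as untreated mutant have wild type in the genotype field and the deposited name wt_100. Titles and fields agree for JA-treated mutant (mu_100) and untreated wild type (wt_0). Genotype was taken from the genotype field, which goes with the deposited names, and mu_0 was set against wt_0 and mu_100 against wt_100. The treatment field follows the titles, with mu_0 as JA-treated and wt_100 as untreated, whereas the names read the other way. A difference between genotypes in these pairs therefore cannot be told apart from a difference in JA, and the results by title are given beside the main ones.

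Total counts per library were 3109928 to 3943038 in mutant and 4392280 to 4875478 in wild type of the genotype experiment. They were 839322 to 1353622 in mu_0, 1660718 to 1917363 in wt_0, 847205 to 857113 in mu_100 and 1170331 to 1319107 in wt_100. In the IAA experiment they were 432016 to 608544 with IAA and 609023 to 959735 without. Features with ENSRNA identifiers took 10.7%, 6.84% and 3.33% of counts in mu_0 replicates 1, 2 and 3, against 1.13% to 3.61% in the other JA libraries; the part of this in the results was not tested beyond a fit without those features. The members took 1.91% to 1.96% of counts in mutant and 1.84% to 1.87% in wild type of the genotype experiment, and 1.11% to 1.29% in the JA libraries. Levels below are CPM on TMM-scaled library sizes, scaled within each experiment, so levels set side by side across experiments are a description.

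In the genotype experiment the run stood out by how many of its genes differed, and genes higher and lower in the mutant lay mixed along it. Of 339 members, 74 passed an adjusted p of 0.05 (21.8%), 35 higher and 39 lower in mutant than in wild type. Over all 17841 features tested the share was 6.19% (3.23% higher and 2.96% lower), and the run was chosen for this difference, so nothing is read from it. Those features were not held to the level rule of the members, here or for the overlap given below. With only features of at least 10 CPM in 3 libraries tested, 83 of 338 members were called (24.6%), against 10.3% of all features. The absolute log2 fold change of called members had a median of 0.54, and that of all called features one of 0.47. An absolute log2 fold change of 1 was reached by 12 of the 74 called members, with 7 higher and 5 lower in mutant. Among all called features it was reached by 174 of 1104. The 3 mutant and 3 wild type libraries did not overlap for 147 members (43.4%), against 23.9% of all features tested. Among the called members, Zm00001d040161 and Zm00001d040162 had identical fold changes and adjusted p-values in the genotype experiment and in both JA pairs. They are counted here as 2 members, both lower in mutant, but may be 1 signal. How many other identifiers share their values was not counted.

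In blocks of 1000 identifiers, named here by their first 3 digits, block 041 had the highest called share of 55 blocks in the genotype experiment (18.3% of its tested genes) and block 040 the next (18.1%). Block 042 followed with 17.9% and block 043 with 11.2%, and block 039 had 8.20%, so that the raised share did not end at the borders of the run. The JA experiment gave another profile over the same blocks. In mu_0 against wt_0 block 040 ranked last of 55 blocks with 0.625% called, and block 041 stood at 5.26%, near the share of all features. In mu_100 against wt_100 block 040 had 0.625% and ranked 50, whereas block 041 had 5.26% and ranked 4. The neighbouring block 042 ranked first in both JA pairs, with 12.6% called in mu_0 against wt_0 and 10.5% in mu_100 against wt_100.

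**Figure D1:**
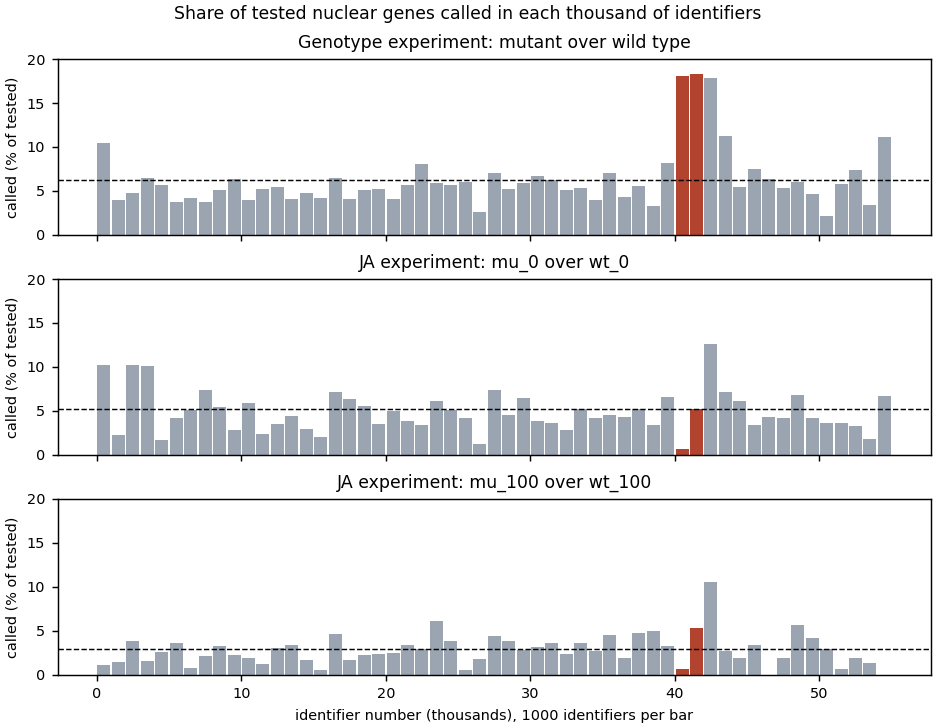
Share of tested nuclear genes past an adjusted p of 0.05 per 1000 identifiers (x axis, identifier number divided by 1000; y axis, percent of tested genes), for mutant over wild type in the genotype experiment, mu_0 over wt_0 and mu_100 over wt_100. Red bars are blocks 040 and 041 and the dashed line is the share over all features tested (6.19%, 5.20% and 2.91%); the red bars are the highest in the top panel, and in the lower panels block 042 is.

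On a scale of 100 identifiers, the highest called share in the genotype experiment was 40% (6 of 15 tested genes, members or not, from 041100 to 041199). Called members were found in each of the 20 bins of 100 identifiers in the run, from 1 member in 040900 to 040999 up to 7 in 040000 to 040099 and 7 in the last bin. Of the 73 pairs of called members that followed each other along the identifiers, 42 had the same sign and 31 opposite signs. The pairs of the same sign include Zm00001d040161 and Zm00001d040162, whose values were identical. The longest unbroken runs were 4 members higher and 5 members lower in mutant. The median gap between called members was 22 identifiers.

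**Figure D2:**
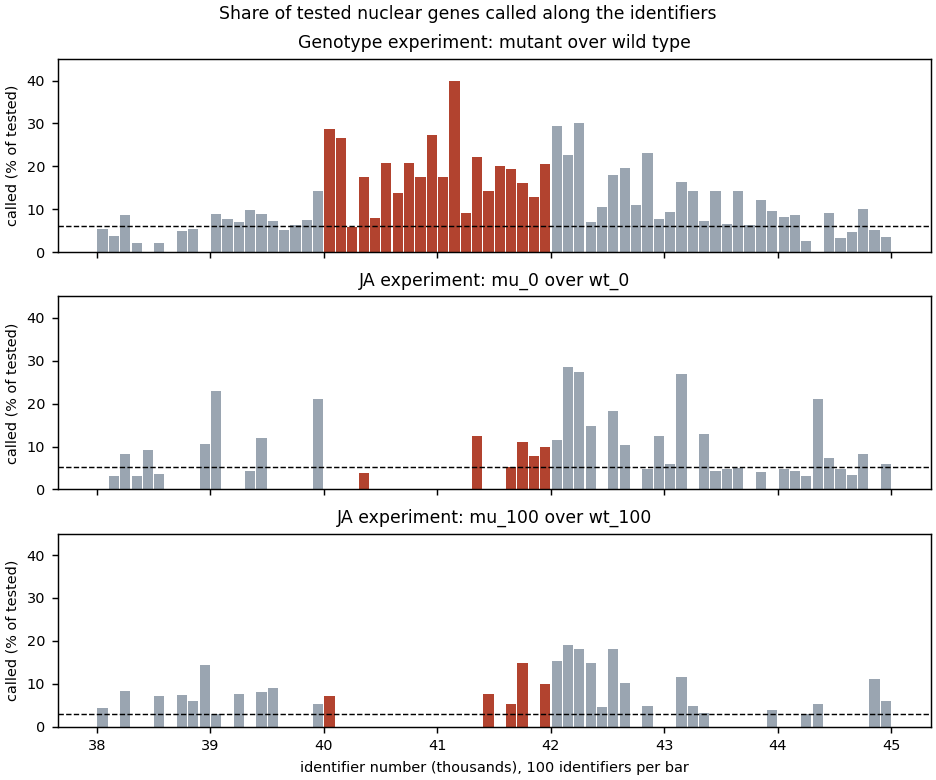
Share of tested nuclear genes past an adjusted p of 0.05 per 100 identifiers over blocks 038 to 044 (x axis, identifier number divided by 1000; y axis, percent of tested genes), for the same 3 comparisons. Red bars lie in the run and the dashed line is the share over all features; called genes fill the whole run in the genotype experiment, and of the 12 members called in a JA pair 8 have numbers from Zm00001d041600 on.

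The 6 called members furthest above wild type in the mutant were all more than 2 fold higher there, and 4 of them were nearly without counts in the JA libraries. Zm00001d040026 had 52.6, 47.0 and 58.9 CPM in mutant, against 22.8, 20.8 and 19.3 CPM in wild type (log2 fold change 1.33 ± 0.11, SE). All mutant libraries lay above all wild type libraries. Zm00001d041649 had 18.6, 17.9 and 21.7 CPM in mutant, against 9.94, 6.93 and 6.73 CPM in wild type (1.30 ± 0.19). Zm00001d040235 had 65.7, 54.3 and 57.6 CPM in mutant, against 29.4, 25.7 and 24.8 CPM in wild type (1.15 ± 0.10). The groups of both genes were again apart. Means were 23.1 CPM in mutant and 10.7 CPM in wild type for Zm00001d040375 (1.11 ± 0.18). They were 25.0 CPM in mutant and 11.8 CPM in wild type for Zm00001d040505 (1.08 ± 0.14), and 16.3 CPM in mutant and 7.77 CPM in wild type for Zm00001d040759 (1.05 ± 0.21).

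The lower end held 5 members at least 2 fold below wild type and Zm00001d040611. Zm00001d040431 had the lowest fold change of the run, with 6.73, 8.95 and 7.84 CPM in mutant, against 25.9, 27.7 and 30.4 CPM in wild type (log2 fold change -1.82 ± 0.15). Zm00001d040834 had 14.4, 12.6 and 13.4 CPM in mutant, against 45.1, 36.9 and 49.2 CPM in wild type (-1.70 ± 0.13). The groups did not overlap for either. Zm00001d040027, next to Zm00001d040026 in the numbering, had 42.3, 41.96 and 51.8 CPM in mutant, against 136, 123 and 125 CPM in wild type (-1.49 ± 0.08). These neighbours thus lay at opposite ends of the run's values; whether their gene models overlap, and whether counting used strand, is not stated by the labels. Zm00001d040757 averaged 13.2 ± 0.90 CPM in mutant and 28.5 ± 3.05 CPM in wild type, and Zm00001d040852 24.7 ± 0.40 CPM in mutant and 52.5 ± 4.24 CPM in wild type (SD, n = 3 each). Zm00001d040611 averaged 7.47 ± 2.02 CPM in mutant and 14.2 ± 3.57 CPM in wild type.

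The members of highest level had small fold changes. Zm00001d041822 led the run with 3385 ± 43.0 CPM in mutant and 2645 ± 79.1 CPM in wild type (log2 fold change 0.36). It was called higher in mutant, and that call held in each of 12 alternatives. Zm00001d040028 averaged 590 ± 6.16 CPM in mutant and 641 ± 10.4 CPM in wild type (-0.12), and Zm00001d041760 averaged 528 ± 23.3 CPM in mutant and 490 ± 14.5 CPM in wild type (0.11); neither passed the threshold. At the border of the level rule, Zm00001d041491 (mean 10.0 CPM) and Zm00001d041488 (10.1 CPM) were just inside. Zm00001d041956 (9.98 CPM) and Zm00001d040724 (9.96 CPM) were just outside, the first of them with 6.02 CPM in mutant and 14.0 CPM in wild type.

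In the JA experiment few members differed between mutant and wild type. In mu_0 against wt_0, 6 of 273 members tested were called (2.20%; 4 higher and 2 lower), against 5.20% of the 11265 features tested (2.74% higher and 2.46% lower). In mu_100 against wt_100, 8 of 273 were called (2.93%; 7 higher and 1 lower), against 2.91% of all features (1.23% higher and 1.68% lower). The members' share in these edgeR fits was thus below that of all features in the first pair and close to it in the second; by DESeq2 the second pair had 14 of 249 members called (5.62%), above the 3.07% of all features. At an unadjusted p under 0.05 it was 19.4% for members and 19.2% for all features in mu_0 against wt_0, and 15.0% for members and 15.4% for all in mu_100 against wt_100. The 3 libraries a side did not overlap for 67 of 273 members in the first pair (24.5%, against 25.6% of all features) and for 50 in the second (18.3%, against 19.7%). The remaining 66 members were not tested in the JA experiment because their counts were too low there.

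These counts moved with single libraries. The mu_0 count fell to 1 without wt_0 replicate 1 or 3, 2 without wt_0 replicate 2 or mu_0 replicate 3, and 3 without mu_0 replicate 1, which is 0.355% to 1.07% of members, against 2.53% to 3.64% of all features in those fits. The mu_100 count fell to 5, 4 and 3 without wt_100 replicates 1, 2 and 3 and to 5 without mu_100 replicate 2 or 3, which is 1.07% to 1.79% of members, against 1.49% to 1.72% of all features. Without mu_100 replicate 1 it was 10 (3.55% of members, against 1.79% of all features). With ENSRNA features left out, 13 of 275 members were called in mu_0 against wt_0 (4.73%, against 7.32% of all features). In mu_100 against wt_100 it was then 15 of 275 (5.45%), above the 4.02% of all features.

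Read by title, few members were called as well. Titled untreated mutant against untreated wild type (the libraries named wt_100 against wt_0) gave 6 of 273 members called (2.20%, against 2.73% of all features). JA-treated mutant against titled JA-treated wild type (mu_100 against mu_0) gave 10 of 273 (3.66%, against 3.67%). The first count was 2 or 3 without any 1 of wt_0 replicates 1, 2 and 3 and wt_100 replicates 1 and 3, which is 0.709% to 1.07% of members, against 1.30% to 1.64% of all features. The second was 5 or 6 without any 1 of mu_0 replicates 1 and 2 and mu_100 replicates 2 and 3 (1.77% to 2.14% of members, against 2.01% to 2.38% of all features). The pair whose labels agree, JA-treated mutant mu_100 against untreated wild type wt_0, differs in genotype and in JA at once and gave 29 of 273 (10.6%, against 10.2%). In the edgeR fits of all libraries with the ENSRNA features kept and the filter on low counts used, then, the share of members called was close to the share of all features or below it under each reading. By DESeq2, mu_100 against mu_0 had 12 of 223 members called (5.38%), above the 4.55% of all features. In wt_100 against wt_0 it was 7 of 236 by DESeq2 (2.97%), below the 3.67% of all features.

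**Figure D3:**
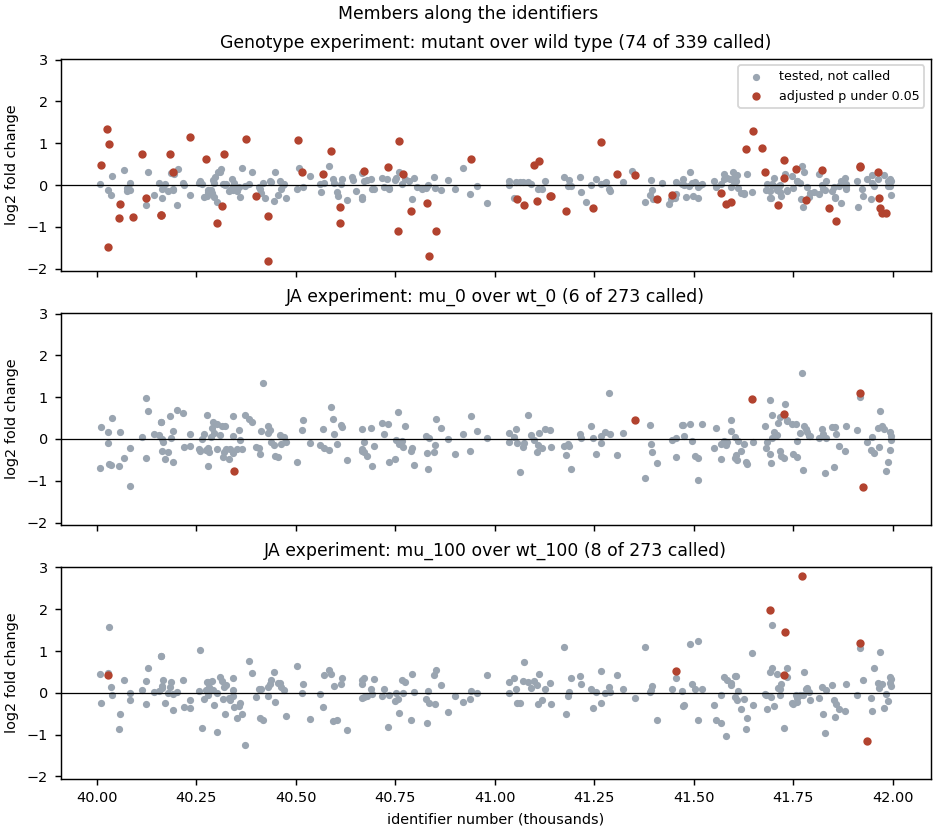
Log2 fold change of each member (y axis) by its identifier number divided by 1000 (x axis) in the 3 comparisons. Red points passed an adjusted p of 0.05 and grey points were tested without passing; 74 of 339 members are red in the genotype experiment, scattered on both sides of 0, against 6 and 8 of 273 in the JA pairs.

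Both JA pairs called the same 2 members with the same sign, and both were also called higher in the mutant of the genotype experiment. They are 0.733% of the 273 members tested, and 1.10% of all features were called with the same sign in both JA pairs. Zm00001d041727 had 491, 478 and 555 CPM in mu_0, against 319, 354 and 339 CPM in wt_0 (log2 fold change 0.59 ± 0.09, edgeR adjusted p = 0.00209). It had 493, 521 and 431 CPM in mu_100, against 344, 371 and 359 CPM in wt_100 (0.43 ± 0.09, adjusted p = 0.0208), so that each mutant library lay above each wild type library in both pairs. In the genotype experiment it had 216, 212 and 207 CPM in mutant, against 187, 194 and 180 CPM in wild type (0.18). That call was lost in 8 of 12 alternatives (adjusted p up to 0.164), among them DESeq2, the replicate block, no filter on low counts and the fits without any 1 of mutant replicates 1, 2 and 3 and wild type replicates 1 and 3. The mu_0 call held in each of 13 alternatives, and the mu_100 call was lost without any one of wt_100 replicates 1, 2 and 3 and mu_100 replicates 1 and 2 (adjusted p up to 0.102).

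Zm00001d041917 had 21.4, 25.1 and 22.5 CPM in mu_0, against 10.6, 10.4 and 10.8 CPM in wt_0 (log2 fold change 1.10 ± 0.26, edgeR adjusted p = 0.0231). Its values were 17.0, 39.4 and 30.0 CPM in mu_100, against 11.7, 13.1 and 13.1 CPM in wt_100 (1.18 ± 0.28, adjusted p = 0.0316). The groups did not overlap, but mu_100 replicate 1 was close to wt_100. In the genotype experiment it had 46.2, 40.6 and 45.3 CPM in mutant, against 30.5, 33.6 and 32.0 CPM in wild type (0.45). Counts were low, 14 to 32 in the mutant JA libraries, and the call was lost when any library of the mu_0 pair was left out and when any of the mu_100 pair but mu_100 replicate 1 was left out. The next identifier, Zm00001d041918, had similar values and was called higher in the mutant of the genotype experiment (0.43). It was not called in mu_0 against wt_0 (1.00, edgeR adjusted p = 0.0664) or mu_100 against wt_100 (1.08, edgeR adjusted p = 0.0883). Whether the 2 gene models share reads was not tested.

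The other 4 members called in mu_0 against wt_0 moved in both directions. Zm00001d041647 rose, with 60.6, 63.7 and 84.5 CPM in mu_0, against 36.2, 43.8 and 26.6 CPM in wt_0 (log2 fold change 0.95 ± 0.23, edgeR adjusted p = 0.0255). Its value in mu_100 against wt_100 was 0.96 ± 0.27, with an adjusted p of 0.0752, and the sign in the genotype experiment was the other way (-0.17). Zm00001d041352 rose by 0.45 ± 0.11 (adjusted p = 0.0295; 174 ± 16.1 CPM in mu_0 and 127 ± 7.74 CPM in wt_0, SD, n = 3 each), and it was among those called higher in the genotype experiment (0.24). Zm00001d041926 had 6.65, 16.4 and 12.4 CPM in mu_0, against 27.0, 26.3 and 22.7 CPM in wt_0 (-1.15 ± 0.29, adjusted p = 0.0358). Zm00001d040344 had 24.4, 23.2 and 18.0 CPM in mu_0, against 38.2, 37.2 and 36.8 CPM in wt_0 (-0.76 ± 0.20, adjusted p = 0.0375). All 4 calls were lost in at least 1 fit that left out a library. Of 13 alternatives, the call was lost in 3 for Zm00001d041647, 7 for Zm00001d041352, 7 for Zm00001d041926 and 8 for Zm00001d040344. That of Zm00001d040344 was lost with DESeq2, with the replicate block and without any 1 library of the pair.

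Among the other 6 members called in mu_100 against wt_100, only Zm00001d041935 was lower. It had 59.4, 48.0 and 56.4 CPM in mu_100, against 104, 118 and 141 CPM in wt_100 (log2 fold change -1.15 ± 0.14, edgeR adjusted p = 0.000297). Its levels in the other pair overlapped, with 90.9, 97.5 and 83.4 CPM in mu_0, against 101, 86.5 and 99.2 CPM in wt_0. It was the 1 member of 273 whose genotype difference itself differed between the pairs (interaction -1.07 ± 0.19, adjusted p = 0.0203; 0.366% of members, against 0.630% of all features), and this interaction was lost without wt_0 replicate 1 or 2, mu_0 replicate 2, wt_100 replicate 3, or mu_100 replicate 2 or 3.

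Zm00001d041691 had 24.2, 32.0 and 19.2 CPM in mu_100, against 3.59, 8.98 and 6.11 CPM in wt_100 (log2 fold change 1.98 ± 0.34, edgeR adjusted p = 0.00427). In mu_0 against wt_0 the groups were apart in the same direction without a call, with 16.3, 19.3 and 19.2 CPM in mu_0, against 10.6, 7.12 and 10.2 CPM in wt_0 (0.94 ± 0.29, adjusted p = 0.0782). The genotype experiment gave 29.5 ± 0.88 CPM in mutant and 32.6 ± 2.90 CPM in wild type. The calls of this gene and of Zm00001d041935 held in each of 13 alternatives to the mu_100 comparison. Zm00001d041772 had the highest fold change, with 19.4, 23.4 and 30.0 CPM in mu_100, against 2.69, 2.45 and 5.24 CPM in wt_100 (2.78 ± 0.58, adjusted p = 0.0169), from 3 to 6 counts in each wt_100 library. Zm00001d041730 had 23.0, 17.2 and 32.4 CPM in mu_100, against 5.38, 12.3 and 8.73 CPM in wt_100 (1.44 ± 0.35, adjusted p = 0.0357). Zm00001d041455 rose by 0.51 ± 0.11 (edgeR adjusted p = 0.019) and Zm00001d040028 by 0.43 ± 0.08 (edgeR adjusted p = 0.00996). These 2 genes, Zm00001d041772 and Zm00001d041730 each lost the call without at least 1 library. Of 13 alternatives, the call was lost in 5 for Zm00001d041455, 3 for Zm00001d040028, 4 for Zm00001d041772 and 6 for Zm00001d041730.

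**Figure D4:**
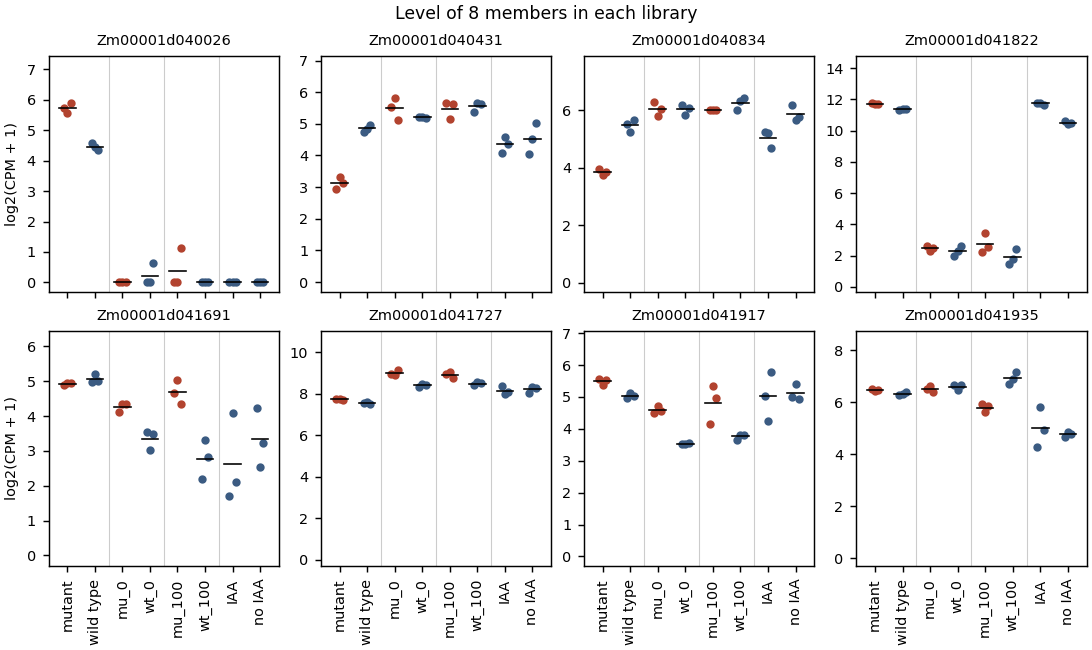
Level of 8 members in each library, as log2(CPM + 1) (y axis), by group (x axis), with a short line at each group's mean of those values. Red points are mutant libraries by the genotype field and blue points wild type; Zm00001d040431 and Zm00001d040834 are lowest in the mutant of the genotype experiment, and Zm00001d040026 and Zm00001d041822 are near the bottom in all 12 JA libraries.

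Of 12 members called in either pair, 8 had numbers from Zm00001d041600 on and 4 lower numbers. Below Zm00001d041600, 2 of 199 members tested were called in mu_0 against wt_0 and 2 of 199 in mu_100 against wt_100 (1.01% each). From there to the end of the run, 4 of 74 were called in mu_0 against wt_0 (5.41%, against 5.20% of all features) and 6 of 74 in mu_100 against wt_100 (8.11%, against 2.91%). The share of the upper stretch was thus at that of all features in the first pair and above it in the second, and the share of the lower stretch was below it in both. In the genotype experiment both stretches were alike, with 55 of 245 members called below Zm00001d041600 (22.4%) and 19 of 94 from it on (20.2%). The division at that identifier was made after the values were seen and has no test. For comparison, genes of block 042 chosen by the same level rule had 26 of 212 called in mu_0 against wt_0 (12.3%) and 22 of 212 in mu_100 against wt_100 (10.4%).

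Fold changes of the 2 JA pairs, which share no library but are taken from the same fit, were compared across members. Pearson's r was 0.03 over 199 members below Zm00001d041600 and 0.65 over 74 members from it on (Spearman's rho 0.12 and 0.49). It was 0.29 over all 273 members, 0.69 over 212 genes of block 042 and 0.38 over 10681 other nuclear genes. The sign was the same for 116 of 199 members below Zm00001d041600 (58.3%) and 48 of 74 from it on (64.9%), against 58.8% of the other nuclear genes. These are correlations across genes, which are not independent replicates.

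The direction a member had in the genotype experiment was found again in the JA pairs for 53.5% to 53.8% of the members. The sign was shared for 147 of 273 members in mu_0 against wt_0 (53.8%) and 146 of 273 in mu_100 against wt_100 (53.5%); for the other nuclear genes tested the shares were 57.5% and 55.1% in the 2 pairs. Among the 63 called members that were tested, 36 shared it in mu_0 against wt_0 (57.1%) and 34 in mu_100 against wt_100 (54.0%). Other nuclear genes called in the genotype experiment, not held to the level rule, shared it in 592 of 790 cases in mu_0 against wt_0 (74.9%) and 531 of 790 in mu_100 against wt_100 (67.2%). In block 042, however, the called genes of the level rule shared it in 26 of 44 cases in mu_0 against wt_0 (59.1%) and 24 of 44 in mu_100 against wt_100 (54.5%), close to the shares of the run. Across the 63 members r with the genotype fold change was 0.05 and 0.10 in the 2 pairs, and across the 790 other genes 0.46 and 0.37. All 3 comparisons gave the same sign for 92 of 273 members (33.7%, against 35.6% of the other nuclear genes). The 2 members called in all 3 with the same sign, Zm00001d041727 and Zm00001d041917, are 0.733% of members, against 0.404% of all features, and the genotype call of the first was lost in 8 of 12 alternatives.

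**Figure D5:**
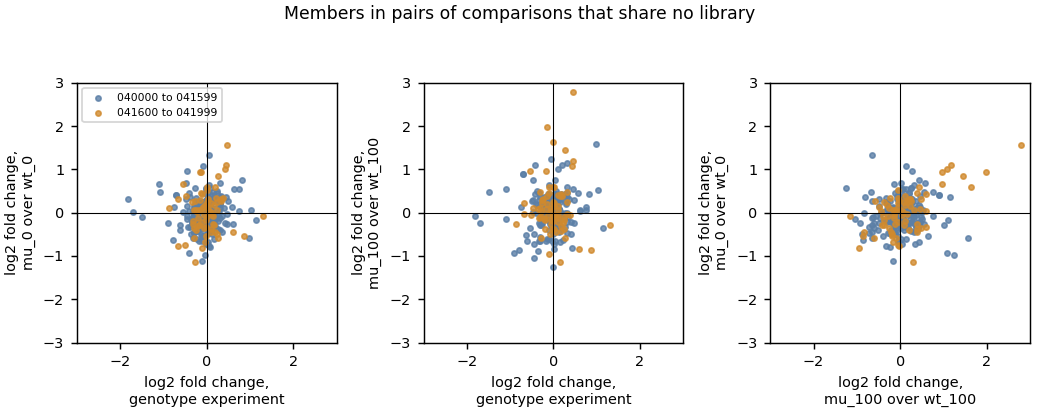
Log2 fold changes of members in pairs of comparisons that share no library: genotype experiment against mu_0 over wt_0, genotype experiment against mu_100 over wt_100, and mu_100 over wt_100 against mu_0 over wt_0. Blue points have identifiers below Zm00001d041600 and orange points those from it on; the left and middle clouds have no slope to the eye (r 0.06 and 0.09 over 273 members), and in the right panel the orange points lie along a diagonal (r 0.65) and the blue ones do not (r 0.03).

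The JA libraries were shallower and their intervals wider. The median half-width of a member's 95% interval on the log2 scale was 0.55 in mu_0 against wt_0 and 0.61 in mu_100 against wt_100, and 0.25 in the genotype experiment. Of the 63 called members tested, the genotype experiment's value lay outside the JA interval for 31 in mu_0 against wt_0 and 30 in mu_100 against wt_100. In the same order, it lay outside for 270 and 283 of 790 other nuclear genes called in the genotype experiment. For called genes of block 042 under the level rule it was 23 and 22 of 44. These intervals cover the error of the JA value only. The median absolute genotype fold change was 0.48 for the 63 members, 0.37 for the 790 other genes and 0.57 for the 44 of block 042. Larger values fall outside an interval more easily, and the 790 genes were not held to the level rule. These counts are therefore not a like comparison. Of the 12 members with an absolute log2 fold change of at least 1, 8 were tested in the JA experiment and none was called there by edgeR. The genotype experiment's value lay outside the interval for 8 of 8 in mu_0 against wt_0 and 7 of 8 in mu_100 against wt_100. The share among other genes with changes this large was not counted. Zm00001d040431, at -1.82 in the genotype experiment, had 44.6 ± 10.6 CPM in mu_0 and 36.0 ± 0.29 CPM in wt_0 (0.31, 95% interval -0.06 to 0.69). Zm00001d040834, at -1.70, had 65.7 ± 10.9 CPM in mu_0 and 64.7 ± 8.02 CPM in wt_0 (0.02, interval -0.30 to 0.35). The difference between the experiments was not itself tested, since the run was chosen on one of them.

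Zm00001d040852 was lower in the mutant of the genotype experiment (-1.09) and had 166, 146 and 132 CPM in mu_0, against 114, 119 and 84.4 CPM in wt_0 (0.48 ± 0.14, edgeR adjusted p = 0.0664). In the other pair it had 142, 165 and 140 CPM in mu_100, against 94.2, 111 and 101 CPM in wt_100 (0.55 ± 0.14, adjusted p = 0.0568). The groups were apart in all 3 comparisons, and the JA values did not pass the threshold. Zm00001d041649 and Zm00001d040235, among the highest in the genotype experiment, had values of -0.07 ± 0.34 and -0.16 ± 0.43 in mu_0 against wt_0 and of -0.29 ± 0.36 and -0.36 ± 0.48 in mu_100 against wt_100.

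Within 1 genotype field, 3 members were called with the same sign in both mu_100 against mu_0 and wt_100 against wt_0 (1.10% of 273, against 1.00% of all features); they were named after their values were seen. Zm00001d040028 averaged 470 ± 18.2 CPM in mu_100 and 245 ± 13.5 CPM in mu_0 (log2 fold change 0.94, edgeR adjusted p = 1.06e-05), and 350 ± 4.32 CPM in wt_100 and 217 ± 5.74 CPM in wt_0 (0.69, adjusted p = 0.000179). Zm00001d040613 averaged 113 ± 23.5 CPM in mu_100 and 65.2 ± 1.53 CPM in mu_0 (0.79, adjusted p = 0.00604), and 97.3 ± 7.96 CPM in wt_100 and 51.3 ± 4.34 CPM in wt_0 (0.92, adjusted p = 0.00202). Zm00001d041277 averaged 67.7 ± 10.1 CPM in mu_100 and 42.2 ± 6.98 CPM in mu_0 (0.68, adjusted p = 0.0355), and 67.6 ± 6.74 CPM in wt_100 and 37.2 ± 6.22 CPM in wt_0 (0.85, adjusted p = 0.00738). All 3 thus rose in both. By title the same contrasts are mutant against wild type, with JA and without it. Zm00001d040027 was called in mu_100 against mu_0, where it rose by 1.34 ± 0.26 (adjusted p = 0.00751); its value in wt_100 against wt_0 was 0.76 ± 0.25 (adjusted p = 0.134).

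In the IAA experiment, which compared no mutant, 3 of 200 members tested were called, all higher with IAA (1.50%, against 2.42% of all 7687 features tested and 1.25% called higher). Zm00001d041822 averaged 3441 ± 179 CPM with IAA and 1464 ± 93.9 CPM without (log2 fold change 1.24 ± 0.08, edgeR adjusted p = 1.09e-06). Zm00001d040127 averaged 1133 ± 116 CPM with IAA and 752 ± 17.2 CPM without (0.60 ± 0.10, adjusted p = 0.00435). Zm00001d041671 averaged 262 ± 18.9 CPM with IAA and 164 ± 22.6 CPM without (0.68 ± 0.15, adjusted p = 0.0291). The groups did not overlap for any of the 3. Only 2 members were called when any 1 library but untreated replicate 1 was left out (0.917% to 0.957%, against 0.921% to 1.29% of all features). The other 139 members were not tested there.

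The same 3 members had very unequal levels across the experiments. Zm00001d041822, the member of highest level in the genotype experiment, averaged 4.51 CPM in mu_0, 3.94 CPM in wt_0, 6.10 CPM in mu_100 and 2.87 CPM in wt_100. Zm00001d041671 averaged 234 CPM in mutant and 126 CPM in wild type of the genotype experiment, and no more than 1.74 CPM in any JA group. Zm00001d040127 went the other way, with 17.2 CPM in mutant and 13.8 CPM in wild type of the genotype experiment and 13.5 to 29.8 CPM in the JA groups, against 752 CPM without IAA. These were all endosperm at the same age by the labels.

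Some members of the genotype experiment were all but without counts in the JA experiment. At most 3 counts over the 12 JA libraries, out of 14764278 in all, were found for 6 of 339 members (1.77%), against 66 of 11045 other nuclear genes of the same level rule (0.598%). Of these 6, 4 were called higher in the mutant of the genotype experiment (Zm00001d040026, Zm00001d040375, Zm00001d040505 and Zm00001d040759), and Zm00001d040297 and Zm00001d041769 were not called. Over all features 3.23% were called higher there, and the share among the 66 other genes was not counted. Zm00001d040759 averaged less than 10 CPM in wild type and so met the level rule only through its mutant libraries. The run was also chosen on this comparison, so nothing is read from the direction. Zm00001d040375 had no count in any JA library, which allows a level of up to 0.203 CPM, and none in the IAA libraries, which allows up to 0.750 CPM; such limits cover counting error only. Zm00001d040026 had 853 counts in the genotype experiment, 2 in the JA experiment and none in the IAA experiment. At most 3 counts in the IAA experiment were also found for 5 of the 6, all but Zm00001d040505. The floor of 3 counts was applied to the members after their values were seen.

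Untreated wild type levels also differed between experiments for other members, about as often as elsewhere. A 4-fold or larger difference between wt_0 and wild type of the genotype experiment was found for 42 of 339 members (12.4%), against 10.4% of the other nuclear genes, and 41 of these 42 were lower in wt_0. Among the 1145 other nuclear genes with such a difference, 1008 were lower in wt_0. The level rule was set on the genotype experiment, which favours lower levels elsewhere, so nothing is read from the direction. Between wild type without IAA and wild type of the genotype experiment such a difference was found for 15.6% of members and 15.8% of the others. The spread between replicates of members was close to that of other genes of the same level rule. The median coefficient of biological variation was 0.0858 for members and 0.0859 for others in the genotype experiment, and 0.143 for members and 0.144 for others in the JA experiment.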

How the data were processed

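The deposited values are whole-number read counts per feature, 1 table per library with the same 46430 features, used as the authors deposited them. The submitters' processing notes name Trimmomatic 0.39 and HISAT2 2.2.1. How reads were assigned to features, on which build, with or without strand and with or without removal of duplicates is not stated there. Tests used edgeR 4.0.16 in R 4.3.3 (TMM scaling, filterByExpr at a minimum count of 10, 2-sided quasi-likelihood tests, Benjamini-Hochberg adjustment over all features tested, threshold 0.05). The JA experiment was fitted as 1 model of its 12 libraries, and the genotype and IAA experiments each in a model of their own 6. Standard errors are the absolute log2 fold change divided by the square root of F. The script was tested on simulated counts.

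The members, comparisons and alternatives were chosen with earlier results of these data known. Named members were those called with the same sign in both JA pairs; up to 6 in each direction with the largest fold change among those called in the genotype experiment; the 2 nearest to the level minimum on each side; the 3 of highest level; and the first and last called in all 3 comparisons. Members called in only 1 JA pair, in the IAA comparison or in both comparisons within a genotype field were added after their values were seen. Zm00001d040161, Zm00001d040162 and Zm00001d041918 were added in the same way, for values equal or close to those of a neighbour. Libraries of a group were not copies of each other: chi-square per degree of freedom was 1.76 to 6.44 over 24 pairs. The alternatives were RLE size factors, DESeq2 1.42.0, no filter on low counts, a minimum of 10 CPM in 3 libraries, the replicate number as a block, ENSRNA features left out, each library left out, only the libraries compared, genotype by title, only groups whose labels agree, and level minimums of 5 and 20 CPM.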

Additional observations from a re-analysis of the deposited data

Results flagged for a closer look

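Zm00001d041935 was singled out because its genotype difference differed between the JA pairs by the interaction term, at -1.07 on the log2 scale.

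Members were also singled out where all 3 mutant libraries lay on one side of wild type in the genotype experiment and on the other side in a JA pair, and at least 1 of the 2 comparisons passed the threshold. These differences between experiments were not tested. The share of all features that meet this rule was not counted, so the counts of members below have no background beside them. Groups did not overlap for 23.9% of all features in the genotype experiment. It was 25.6% in mu_0 against wt_0 and 19.7% in mu_100 against wt_100. For mu_0 against wt_0 there were 7 such members. Zm00001d040274 had a log2 fold change of 0.62 in the genotype experiment and -0.27 in mu_0 against wt_0, Zm00001d040314 -0.49 and 0.32, Zm00001d040757 -1.11 and 0.65, and Zm00001d040852 -1.09 and 0.48. Zm00001d041593 had -0.41 and 0.45, Zm00001d041647 -0.17 and 0.95, and Zm00001d041711 -0.48 and 0.39.

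For mu_100 against wt_100 there were 9. Zm00001d040027 had a log2 fold change of -1.49 in the genotype experiment and 0.48 in mu_100 against wt_100, Zm00001d040028 -0.12 and 0.43, Zm00001d040567 0.27 and -0.33, Zm00001d040731 0.43 and -0.82, and Zm00001d040852 -1.09 and 0.55. Zm00001d041632 had 0.86 and -0.87, Zm00001d041691 -0.14 and 1.98, Zm00001d041726 0.60 and -0.84, and Zm00001d041935 0.15 and -1.15. Zm00001d040852 was the 1 member in both lists.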

How the results depend on the processing

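In the genotype experiment the highest share per 100 identifiers was 50% and 28.1% with widths of 50 and 200 identifiers, against 40%. Over its other alternatives 16.2% to 26.2% of members were called, against 3.81% to 10.3% of all features. The number of members called was 55 to 85 (85 of 423 at a level minimum of 5 CPM), against 74 as reported. In mu_0 against wt_0 (6 as reported) it was 10 with no low-count filter (2.96% of members, against 2.78% of all features), 13 with ENSRNA features left out (4.73%, against 7.32%), 29 with only groups whose labels agree (10.6%, against 10.2%), and 1 to 6 with 1 library left out (0.355% to 2.13%, against 2.53% to 3.64%). In mu_100 against wt_100 (8 as reported) it was 14 with DESeq2 (5.62% of members, against 3.07% of all features), 12 with no low-count filter (3.55%, against 1.58%) and 15 with ENSRNA features left out (5.45%, against 4.02%), above the share of all features in each. It was 5 with only the 6 libraries compared (2.16%, against 2.34%), 29 with only groups whose labels agree (10.6%, against 10.2%), and 3 to 10 with 1 library left out (1.07% to 3.55%, against 1.49% to 1.79%). In the IAA comparison (3) it was 6 with DESeq2 (3.75%, against 4.97%) and 6 with ENSRNA features left out (3.00%, against 4.24%). With 1 library left out it was 2 to 3 there (0.917% to 1.36%, against 0.921% to 2.27%). The interaction (1) gave 2 with no low-count filter (0.592%, against 0.938%) and 0 to 1 with 1 library left out (at most 0.358%, against 0.211% to 0.472%). In wt_100 against wt_0 (6) the range with 1 library left out was 2 to 4 (0.709% to 1.42%, against 1.30% to 1.64%). In mu_100 against mu_0 (10) it was 5 to 7 (1.77% to 2.48%, against 2.01% to 2.46%), and 16 members were called with ENSRNA features left out (5.82%, against 4.64%). With no low-count filter, 9 members were called in mu_100 against mu_0 (2.66%, against 1.92%) and 7 in wt_100 against wt_0 (2.07%, against 1.54%). The cause of these shifts was not tested.

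Signs turned for Zm00001d041727 in mu_100 against wt_100 (-0.077 by title), Zm00001d041647 in mu_0 against wt_0 (-0.60 by title), and, with only groups whose labels agree, for Zm00001d040027 (1.24) and Zm00001d041352 (-0.10) in mu_0 against wt_0; these alternatives compare other libraries by construction.

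The replicate numbers did not pair the libraries: deviations of same-numbered libraries from their group means correlated at -0.0869 to 0.098. With the replicate number as a block, 70 members were called in the genotype experiment (20.6%, against 5.32% of all features), 4 in mu_0 against wt_0 (1.47%, against 3.96%) and 8 in mu_100 against wt_100 (2.93%, against 2.19%). Of the members, 66 did not reach the count minimum in the shallower JA libraries and 139 in the IAA libraries; for some of them, such as Zm00001d041822 in the JA libraries, the level itself was lower there too.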
